A study of Mus musculus with 70 samples.

Results

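The expression of 10 genes of inhibitory neurons was followed across the brain in mice of 3 Cic genotypes. The genes are Gad1, Gad2, Slc32a1, Pvalb, Lhx6, Dlx1, Dlx2, Dlx5, Dlx6 and Sox6. All 10 were found by mapping the versioned Ensembl identifiers of the count table to mouse symbols, out of 50789 identifiers in all. Inhibitory neurons make the transmitter GABA from glutamate with the decarboxylases GAD67 (Gad1) and GAD65 (Gad2) and load it into vesicles with the transporter VGAT (Slc32a1). The homeodomain factors Dlx1, Dlx2, Dlx5 and Dlx6 act early in forebrain GABA neurons, and Lhx6 and Sox6 act after them in the cortical interneurons born in the medial ganglionic eminence, many of which later make the calcium-binding protein parvalbumin (Pvalb). In the cerebellum the GABA neurons are mainly Purkinje cells, which also make parvalbumin, and the interneurons of the molecular and granular layers, and they do not arise through the forebrain Dlx program.

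Capicua, encoded by Cic, represses transcription and exists as a short and a long isoform. The compared groups were WT, Cic-S-KO and Cic-L-KO, names that the labels do not spell out further. Cortex and cerebellum came from mice of 12 weeks, and lung from pups of postnatal day 6, as flash-frozen whole tissue from which polyadenylated RNA was sequenced. WT mice were littermates of both lines, put together by the submitters, and the line each came from is not given. Each group held 8 libraries, and Cic-S-KO cortex and Cic-S-KO cerebellum held 7. The labels used here give the genotype names alone and no allele design, strain or sex. They call the libraries replicates and do not say which came from separate mice, so the p-values measure the spread between libraries. All lung libraries carry batch label 1 and all brain libraries batch label 2, so tissue, age and batch cannot be told apart between lung and brain. Levels are CPM (each library's counts scaled to a common total, with TMM factors), and a gene was called changed at a Benjamini-Hochberg adjusted p under 0.05 in edgeR's quasi-likelihood test over all genes tested in that tissue.

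The members of the list lie on 4 autosomes. In GRCm38, Gad1 spans bases 70553072 to 70602014 of chromosome 2 on the plus strand, Gad2 spans 22622205 to 22693874 and Slc32a1 158610767 to 158615748 of the same chromosome and strand, and Lhx6 spans 36081953 to 36105408 on the minus strand. Dlx1 (71528113 to 71533981, plus strand) and Dlx2 (71543408 to 71546754, minus strand) are neighbours on chromosome 2. Dlx6 (6863334 to 6868568, plus strand) and Dlx5 (6877805 to 6882085, minus strand) are neighbours on chromosome 6. Pvalb spans 78191114 to 78206400 of chromosome 15 and Sox6 spans 115470872 to 116038796 of chromosome 7, both on the minus strand. RefSeq (GRCm38.p6) promoters, from 250 bases before to 50 after a start site, were matched for 8 of the 10 genes, as 16 windows, and Dlx5 and Dlx6 have no entry in the table used. The promoters of 4 members that the results turn on, chosen after their values were seen, are shown 5′ to 3′, with capitals marking GC boxes (GGGCGG on either strand). They are Gad1 at chr2:70561879-70562178 (plus strand), Slc32a1 at chr2:158610508-158610807 (plus strand), the Pvalb start site farthest upstream at chr15:78206351-78206650 (minus strand) and Dlx1 at chr2:71529195-71529494 (plus strand).
Gad1 promoter: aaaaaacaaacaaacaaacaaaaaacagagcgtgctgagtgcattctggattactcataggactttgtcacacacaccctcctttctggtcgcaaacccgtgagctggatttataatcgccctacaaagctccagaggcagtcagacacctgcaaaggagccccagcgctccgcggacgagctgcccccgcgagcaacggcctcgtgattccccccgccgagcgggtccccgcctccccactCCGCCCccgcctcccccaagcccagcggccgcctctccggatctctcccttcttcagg
Slc32a1 promoter: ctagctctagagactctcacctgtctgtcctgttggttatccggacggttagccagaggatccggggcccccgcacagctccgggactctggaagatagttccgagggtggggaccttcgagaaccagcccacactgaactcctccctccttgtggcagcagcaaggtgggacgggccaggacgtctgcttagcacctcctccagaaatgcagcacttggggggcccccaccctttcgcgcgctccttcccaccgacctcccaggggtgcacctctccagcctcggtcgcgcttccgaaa
Pvalb promoter: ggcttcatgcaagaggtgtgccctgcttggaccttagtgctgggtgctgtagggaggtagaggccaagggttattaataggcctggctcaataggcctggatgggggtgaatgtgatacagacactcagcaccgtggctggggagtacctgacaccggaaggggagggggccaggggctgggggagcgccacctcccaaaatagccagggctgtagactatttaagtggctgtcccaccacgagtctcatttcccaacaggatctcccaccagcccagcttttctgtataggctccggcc
Dlx1 promoter: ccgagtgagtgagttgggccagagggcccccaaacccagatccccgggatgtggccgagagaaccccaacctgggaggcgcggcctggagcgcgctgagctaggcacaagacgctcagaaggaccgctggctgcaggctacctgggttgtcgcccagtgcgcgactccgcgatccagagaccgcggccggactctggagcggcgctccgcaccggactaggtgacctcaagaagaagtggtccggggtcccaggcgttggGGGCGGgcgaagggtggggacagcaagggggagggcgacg
Each of the 16 windows was searched on both strands for the Capicua octamers TGAATGAA, TGAATGGA, TCAATGAA and TCAATGGA, and 0 of 16 held one, while 3.84% of the 32851 promoters in the table did. The homeodomain core TAATTA, which is its own reverse complement, was in 0 of 16 member windows and in 5.29% of all promoters. A GC box was in 6 of 16 member windows and in 35.7% of all promoters, and the Gad1 and Dlx1 windows above each hold 1. These are letter matches in 300 bases and say nothing of binding.

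Counts over the genes analysed here summed to between 20730808 and 32548951 per cortex library and between 20440799 and 30464699 per cerebellum library. Marker genes fitted the tissue labels. The summed level of 5 granule neuron genes was 4684 ± 377 CPM (SD, n = 8) in WT cerebellum and 25.9 ± 4.37 in WT cortex, and that of 10 Purkinje cell genes was 9839 ± 1032 and 1084 ± 80.2. The gene Cic itself read 162 ± 8.62 CPM in WT cortex (SD, n = 8), 251 ± 7.64 in Cic-S-KO cortex (n = 7) and 298 ± 17.0 in Cic-L-KO cortex (n = 8). Counts per gene do not separate the 2 forms, so they do not check the loss of either.

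In WT mice the 2 brain regions held different sets of these genes. The GABA synthesis and packaging genes were read at high levels in both, Pvalb was far higher in cerebellum (about 10 times), and Lhx6 and the 4 Dlx genes were nearly confined to cortex among the brain libraries. Per kilobase of exon, the order in WT cortex was Pvalb (54.9 ± 7.47 CPM per kb, SD, n = 8), Gad1 (54.5 ± 1.76), Gad2 (34.8 ± 4.54), Slc32a1 (32.3 ± 4.23), Dlx1 (7.52 ± 0.522), Lhx6 (4.64 ± 0.452) and Sox6 (2.45 ± 0.192), followed by Dlx6, Dlx5 and Dlx2 at 1.90 ± 0.584, 1.89 ± 0.423 and 1.81 ± 0.328. Pvalb and Gad1 differed by less than their spread, as did Gad2 and Slc32a1, and as did Dlx6, Dlx5 and Dlx2 among themselves. In WT cerebellum the order was Pvalb (602 ± 37.6 CPM per kb), Gad1 (90.5 ± 7.51), Slc32a1 (59.1 ± 1.86), Gad2 (36.9 ± 1.95) and Sox6 (1.5 ± 0.178). The lengths are unions of annotated exons, so a gene read mainly from a short transcript is understated on this scale.

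**Figure D1:**
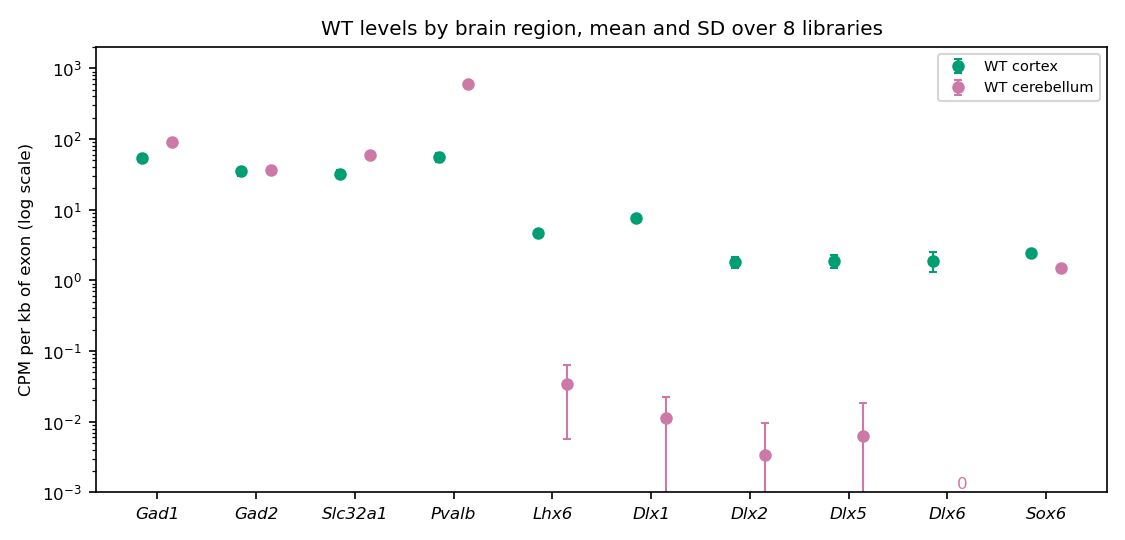
Level of each gene in WT cortex (green) and WT cerebellum (pink), as CPM per kb of exon on a log axis, with points at the mean and bars at 1 SD over 8 libraries. Bars that reach below the axis run off its lower edge, and 0 marks the gene with no count. Lhx6, Dlx1, Dlx2, Dlx5 and Dlx6 sit orders of magnitude lower in cerebellum, whereas Gad2 sits at the same height in both regions.

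Between the regions 9 of the 10 members were called, 6 higher and 3 lower in cortex, where 73.5% of all 18032 genes tested were called (35.4% higher and 38.2% lower), so such a difference was the common case. Lhx6 and the 4 Dlx genes passed the filter on low counts through cortex alone, so their direction was fixed by it and the count of members carries no support. Pvalb was lower in cortex by a log2 ratio of -3.37 ± 0.08 (SE, edgeR adjusted p = 1.8e-36), with 57.1 ± 7.78 CPM in WT cortex and 627 ± 39.2 in WT cerebellum. Gad1 and Slc32a1 were also lower in cortex, by -0.65 ± 0.06 and -0.79 ± 0.09 on the log2 scale. Sox6 was higher in cortex by 0.79 ± 0.06. Gad2 was the member that was not called, at 205 ± 26.7 CPM in cortex and 217 ± 11.4 in cerebellum, a log2 ratio of -0.00 with an interval from -0.17 to 0.17. Dlx6 had 883 counts over the 8 WT cortex libraries and 0 over the 8 WT cerebellum libraries, which makes it at least 316-fold higher in cortex against a floor of 3 counts over the group. Dlx2 had 1012 counts against 2, a ratio of 544 with a counting interval from 150 to 4495, and Dlx5 had 837 against 3, a ratio of 300 with an interval from 102 to 1456. Dlx1 (7938 counts against 13) and Lhx6 (4386 against 35) gave ratios of 656 and 135. Such intervals cover counting error only. The fit scales all 46 brain libraries together, whereas the CPM were scaled within each region, so the log2 ratios and the ratios of CPM differ slightly.

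In Cic-L-KO cortex 4 of the 10 members rose and none fell. They were Slc32a1, the vesicular GABA transporter, the interneuron protein gene Pvalb, and the transcription factors Dlx1 and Dlx5. Over all 16974 genes tested in cortex 43.2% were called in this comparison, 21.4% higher and 21.9% lower, so the share among the members is near the background. The median log2 fold change over the 10 members was 0.20, against 0.01 over all genes tested. In Cic-S-KO cortex 1 of 10 members was called, Dlx5, which was higher, where 6.53% of all genes were called, 2.83% higher and 3.70% lower. The median over the members there was 0.08, against -0.00 over all genes. Both comparisons share the 8 WT libraries. In bulk tissue, fewer cells of a type and less RNA per cell cannot be told apart, and this holds for each value below.

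Gad1 RNA was even in WT cortex, where the 8 libraries ran from 398 to 439 CPM with a median of 416. The Cic-L-KO libraries ran from 401 to 485 with a median of 449, and 6 of 8 lay above every WT library, but the log2 fold change of 0.11 ± 0.05 (SE) had an edgeR adjusted p of 0.099. With the compared genotypes alone it was called, at 0.11 (adjusted p = 0.015). The Cic-S-KO libraries spread from 327 to 474 with a median of 421, on both sides of the WT range. Gad2, the second decarboxylase, ran from 177 to 252 CPM in WT (median 197), from 150 to 277 (median 234) in Cic-S-KO and from 174 to 245 (median 221) in Cic-L-KO, with the 3 groups overlapping. Against WT it gave log2 values of 0.15 ± 0.12 (Cic-S-KO) and 0.08 ± 0.11 (Cic-L-KO), neither of which passed.

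Slc32a1 ran from 78.5 to 113 CPM in WT cortex with a median of 89.0. The Cic-L-KO libraries ran from 107 to 147 with a median of 118, and 5 of 8 lay above every WT library. This is a log2 fold change of 0.42 ± 0.12 (1.34-fold, edgeR adjusted p = 0.0085). In Cic-S-KO the range was far wider, from 71.6 to 142 with a median of 115, 4 of 7 libraries lying above every WT library and 1 below, and the log2 fold change of 0.29 ± 0.13 was not called (adjusted p = 0.17). Of the 3 genes of GABA synthesis and packaging, the transporter was called in Cic-L-KO cortex and neither decarboxylase was. The differences between these genes were not tested.

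Pvalb lay on opposite sides of WT in the 2 knockouts. WT libraries ran from 46.1 to 70.3 CPM with a median of 57.8, Cic-L-KO libraries from 61.6 to 80.5 with a median of 74.5, and Cic-S-KO libraries from 39.8 to 54.8 with a median of 48.7. In Cic-L-KO 5 of 8 libraries lay above every WT library, and the gene rose by 0.34 ± 0.08 on the log2 scale (1.27-fold, edgeR adjusted p = 0.0021). In Cic-S-KO 3 of 7 libraries lay below every WT library, and the log2 fold change of -0.29 ± 0.09 missed the threshold (edgeR adjusted p = 0.052), while DESeq2 called it (adjusted p = 0.015). Against each other the knockouts did not overlap: all 7 Cic-S-KO libraries lay below all 8 Cic-L-KO libraries, with a log2 ratio of -0.62 ± 0.09 (edgeR adjusted p = 4.9e-06).

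Dlx1 separated Cic-L-KO from the other groups. WT libraries ran from 37.5 to 45.6 CPM (median 39.6), Cic-S-KO libraries from 34.1 to 43.3 (median 40.7) and Cic-L-KO libraries from 46.3 to 53.6 (median 49.1). All 8 Cic-L-KO libraries lay above every WT library, and the log2 fold change was 0.29 ± 0.05 (1.22-fold, edgeR adjusted p = 1.5e-05). In Cic-S-KO the value was -0.03 ± 0.05, with an interval from -0.12 to 0.07.

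The other Dlx genes had fewer counts than Dlx1 and a wider relative spread. Dlx2, the neighbour of Dlx1, ran from 3.73 to 6.72 CPM in WT, 4.96 to 8.47 in Cic-S-KO and 4.45 to 8.23 in Cic-L-KO, with log2 fold changes of 0.39 ± 0.13 (edgeR adjusted p = 0.067, DESeq2 adjusted p = 0.036) and 0.22 ± 0.13 (edgeR adjusted p = 0.17). Dlx5 ran from 3.21 to 6.04 CPM in WT, 3.93 to 7.65 in Cic-S-KO and 3.75 to 7.94 in Cic-L-KO. It was called in both knockouts, at 0.50 ± 0.15 in Cic-S-KO (edgeR adjusted p = 0.040) and 0.39 ± 0.14 in Cic-L-KO (0.028). The Cic-S-KO call of Dlx5 was lost on leaving out any of 10 single libraries (Cic-S-KO replicates 2, 3, 5, 6 and 7 and WT replicates 1, 3, 5, 6 and 8), with edgeR adjusted p up to 0.096, and the Cic-L-KO call on leaving out Cic-L-KO replicate 6 or WT replicate 1, 3 or 8 (up to 0.083). With an adjustment for GC content both calls were lost, at 0.46 for Cic-S-KO (adjusted p = 0.078) and 0.34 for Cic-L-KO (0.058), and the Cic-S-KO call was also lost with the compared genotypes alone (0.055) and with the replicate number as a block (0.067). Dlx6, next to Dlx5, ran from 2.65 to 6.85 CPM in WT, 4.09 to 8.36 in Cic-S-KO and 3.15 to 6.32 in Cic-L-KO, with overlapping groups and no call.

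Of the factors that act downstream of the Dlx genes, Lhx6 ran from 18.6 to 25.1 CPM in WT cortex, 17.9 to 26.1 in Cic-S-KO and 22.6 to 28.9 in Cic-L-KO. The value for Cic-L-KO, 0.17 ± 0.07 on the log2 scale, had an edgeR adjusted p of 0.066, and 3 of 8 libraries lay above every WT library. It was called when genes with a mean of at least 50 counts were tested (0.19, adjusted p = 0.042) and with the compared genotypes alone (0.17, adjusted p = 0.027). Sox6 ran from 33.4 to 41.5 CPM in WT, 32.9 to 37.6 in Cic-S-KO and 34.7 to 45.8 in Cic-L-KO. Neither knockout differed from WT by the test, at -0.07 ± 0.06 and 0.09 ± 0.05. Sox6 is also made by cells other than interneurons, such as oligodendrocyte precursors.

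**Figure D2:**
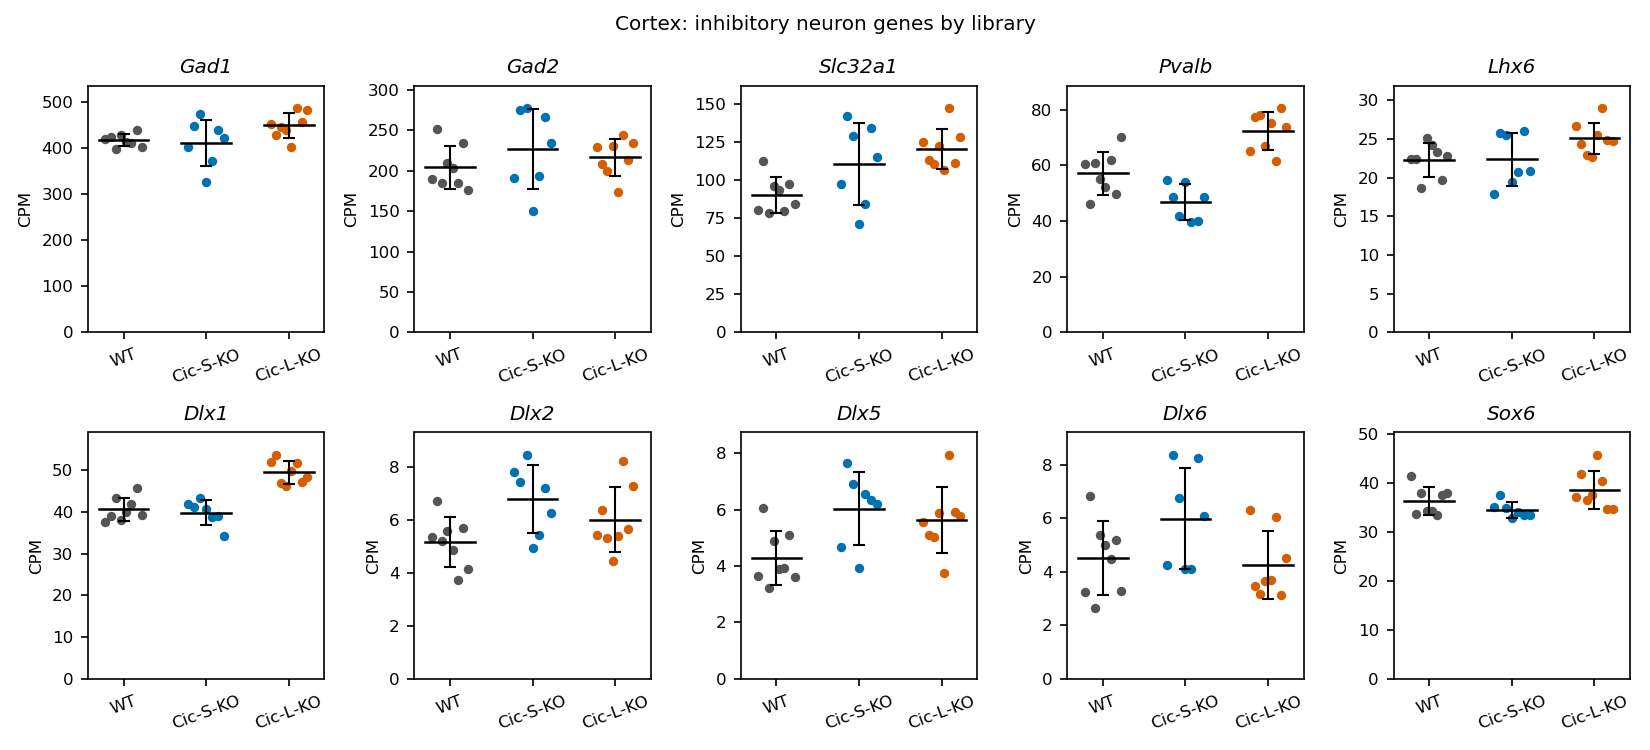
Level of the 10 genes in each cortex library (CPM, axes from 0), for 8 WT, 7 Cic-S-KO and 8 Cic-L-KO libraries, with lines at the mean and bars at 1 SD. Dlx1 in Cic-L-KO lies wholly above the WT range, and Gad2, Slc32a1 and Dlx6 are spread most widely in Cic-S-KO.

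A direct comparison of the knockouts in cortex called 3 of 10 members, all lower in Cic-S-KO, where 33.9% of all genes were called, 17.4% higher and 16.5% lower. Beside Pvalb they were Dlx1, at -0.31 ± 0.05 with all 7 Cic-S-KO libraries below all 8 Cic-L-KO libraries (edgeR adjusted p = 9.1e-06), and Sox6, at -0.16 ± 0.06 (0.027). The call of Sox6 was lost without Cic-L-KO replicate 2 (adjusted p = 0.058) or without Cic-L-KO replicate 5 (0.079). Dlx6 had the largest positive value of the 10, 0.49 ± 0.21, which edgeR did not call (adjusted p = 0.077) and DESeq2 did (0.50, adjusted p = 0.039).

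Part of the spread in cortex ran with genes of the striatum, the region beneath the cortex whose projection neurons also use GABA and the Dlx genes. The summed level of 8 striatal projection neuron genes went from 248 to 734 CPM over the WT cortex libraries, from 244 to 875 over Cic-S-KO and from 229 to 741 over Cic-L-KO, with medians of 392, 764 and 407. None of the 8 was called in either knockout against WT by edgeR or by DESeq2, with 2 at an unadjusted p under 0.05 for Cic-S-KO and 0 for Cic-L-KO, and all 8 fold changes were positive in Cic-S-KO with a median log2 value of 0.63. Ordered by that sum, the WT library with the lowest sum (replicate 1) had Gad2 at 190 CPM, Slc32a1 at 80.4, Dlx6 at 3.26 and Pvalb at 60.4. The WT library with the highest sum (replicate 2) had Gad2 at 252, Slc32a1 at 113, Dlx6 at 6.85 and Pvalb at 46.1, which are the highest WT values of the first 3 genes and the lowest of Pvalb. Cic-S-KO replicate 4, with the lowest sum of its group, had that group's lowest Gad2 (150 CPM), Slc32a1 (71.6) and Dlx5 (3.93). Cic-S-KO replicate 7, with the highest sum (875 CPM), held values near the group medians, with Gad2 at 234, Slc32a1 at 115 and Pvalb at 48.7. In Cic-L-KO, Pvalb was 75.1 CPM at the lowest sum (replicate 5) and 73.8 at the highest (replicate 8), while Gad2 was 174 and 234. Dlx1 did not follow: it was 37.5 CPM in the WT library with the lowest sum and 39.1 in that with the highest. Olfactory bulb genes varied as well, the sum of 4 going from 4.98 to 27.1 CPM in WT cortex and from 4.42 to 28.6 in Cic-S-KO. None of the 4 was called against WT by edgeR or DESeq2. All 4 fold changes were positive in Cic-S-KO, with a median log2 value of 0.77, while the median in Cic-L-KO was -0.24. The part of olfactory bulb tissue in the members' values was not tested.

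**Figure D3:**
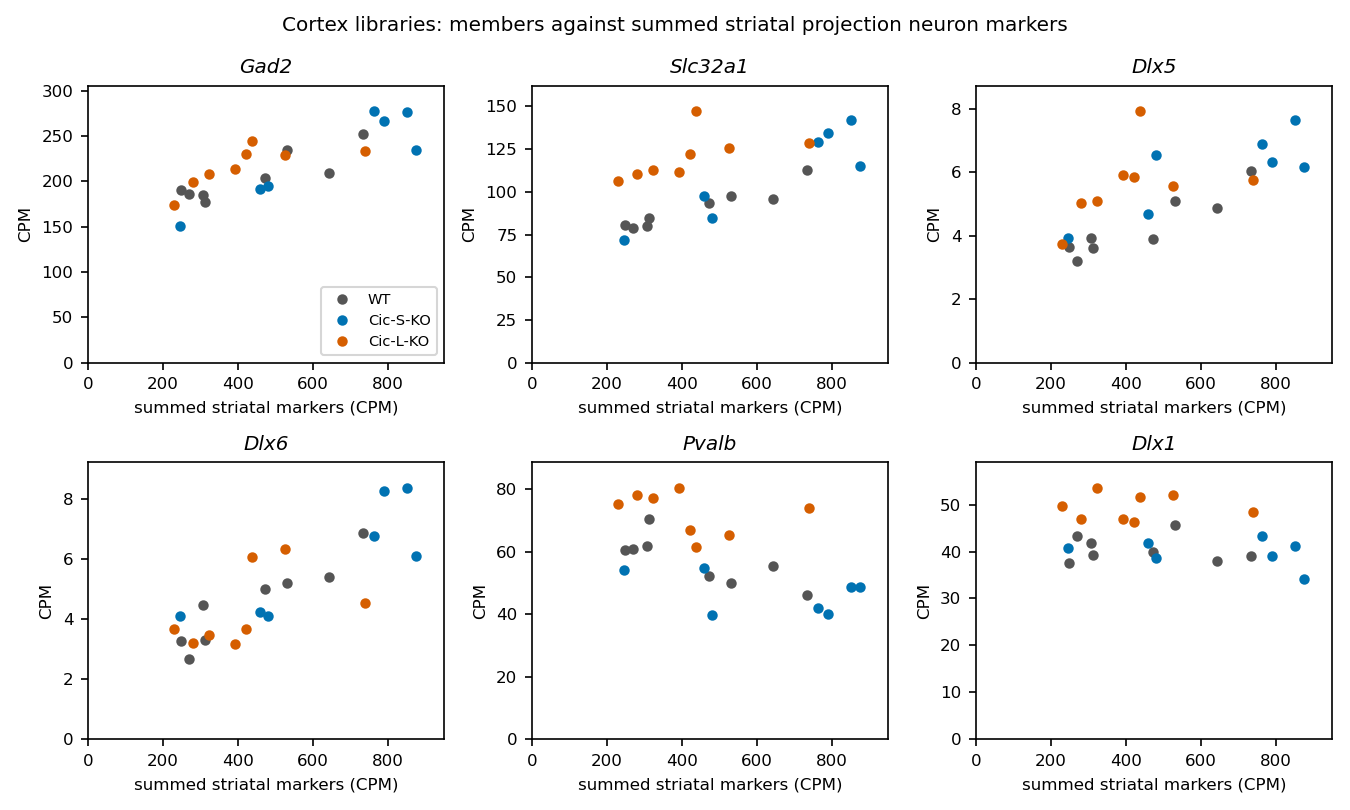
Level of 6 members against the summed level of 8 striatal projection neuron genes in the 23 cortex libraries (both in CPM, linear axes from 0), coloured by genotype. Gad2, Slc32a1, Dlx5 and Dlx6 tend to be higher and Pvalb tends to be lower in libraries with a high sum, though not in every library. The Cic-L-KO points of Slc32a1, Pvalb and Dlx1 lie above WT points of a like sum in most libraries.

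The striatal marker level was also used as a covariate, an alternative added after the data were seen. Here the level was the mean log2 CPM of the same striatal genes, not their summed CPM. With it the Cic-L-KO values stood much as before. Slc32a1 was 0.40 (edgeR adjusted p = 3.3e-05), Pvalb 0.35 (0.00014), Dlx1 0.29 (1.3e-05) and Dlx5 0.38 (0.0034), and Gad1 at 0.10 was also called (0.044). In Cic-S-KO against WT the value of Dlx5 went from 0.50 to 0.26 and was no longer called (adjusted p = 0.23), that of Dlx6 from 0.41 to 0.08, and that of Slc32a1 from 0.29 to 0.08. The value of Gad2 went from 0.15 to -0.05 (adjusted p = 0.76), and that of Pvalb from -0.29 to -0.19 (adjusted p = 0.20), farther from the threshold than before. All 8 striatal fold changes were positive in Cic-S-KO, so the covariate overlaps with that genotype. Adjusting for it may also remove part of a genotype effect, which was not tested. Between the knockouts, Gad1 (-0.20), Slc32a1 (-0.32) and Lhx6 (-0.24) were then called lower in Cic-S-KO beside Pvalb (-0.54) and Dlx1 (-0.30), and Sox6 (-0.12) was not.

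In the cerebellum the GABA genes rose together in both knockouts. Gad1, Gad2, Slc32a1 and Pvalb were called higher in each, and the comparisons share the 8 WT libraries. Sox6 was called in neither. These 5 genes were those of the 10 that passed the filter on low counts, and Lhx6 and the 4 Dlx genes did not pass. Over the 16643 genes tested, 8.23% were called in Cic-S-KO (4.34% higher, 3.89% lower) and 21.5% in Cic-L-KO (10.9% higher, 10.6% lower). The median log2 fold change over the 5 was 0.23 for Cic-S-KO and 0.18 for Cic-L-KO, against 0.01 and 0.00 over all genes tested.

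Gad1 ran from 567 to 759 CPM in WT cerebellum with a median of 695. Cic-S-KO libraries ran from 755 to 953 (median 804) and Cic-L-KO libraries from 770 to 963 (median 824), so that all 8 Cic-L-KO libraries and 6 of 7 Cic-S-KO libraries lay above every WT library. Both log2 fold changes were 0.27 ± 0.06 (1.21-fold), with edgeR adjusted p of 0.0041 for Cic-S-KO and 0.00088 for Cic-L-KO. WT replicate 1, at 567 CPM, lay below the other WT libraries, and without it both values were 0.24 with the calls kept (adjusted p = 0.0046 and 0.0010).

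Slc32a1 was narrow in WT cerebellum, from 159 to 172 CPM with a median of 166. It ran from 165 to 218 in Cic-S-KO (median 193) and from 194 to 234 in Cic-L-KO (median 218), and all 8 Cic-L-KO libraries lay above every WT library. The log2 fold change was 0.38 ± 0.05 in Cic-L-KO (1.30-fold, edgeR adjusted p = 3.8e-06) and 0.24 ± 0.05 in Cic-S-KO (1.18-fold, 0.0043). Gad2 ran from 200 to 238 CPM in WT, from 223 to 265 in Cic-S-KO and from 220 to 264 in Cic-L-KO. It rose by 0.16 ± 0.05 in Cic-S-KO (edgeR adjusted p = 0.031) and 0.18 ± 0.04 in Cic-L-KO (0.0044), and the Cic-S-KO call was lost on leaving out Cic-S-KO replicate 4, 5, 6 or 7 or WT replicate 7 or 8, with adjusted p up to 0.078.

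Pvalb ran from 558 to 679 CPM in WT cerebellum (median 634), from 678 to 855 in Cic-S-KO (median 693) and from 653 to 801 in Cic-L-KO (median 687). It rose by 0.23 ± 0.05 in Cic-S-KO (1.17-fold, edgeR adjusted p = 0.0083) and 0.17 ± 0.05 in Cic-L-KO (1.12-fold, 0.019), with 6 libraries of each knockout above every WT library. Sox6 ran from 17.8 to 25.8 CPM in WT, 21.3 to 24.9 in Cic-S-KO and 19.8 to 25.3 in Cic-L-KO, at 0.08 ± 0.07 and 0.01 ± 0.06 on the log2 scale.

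**Figure D4:**
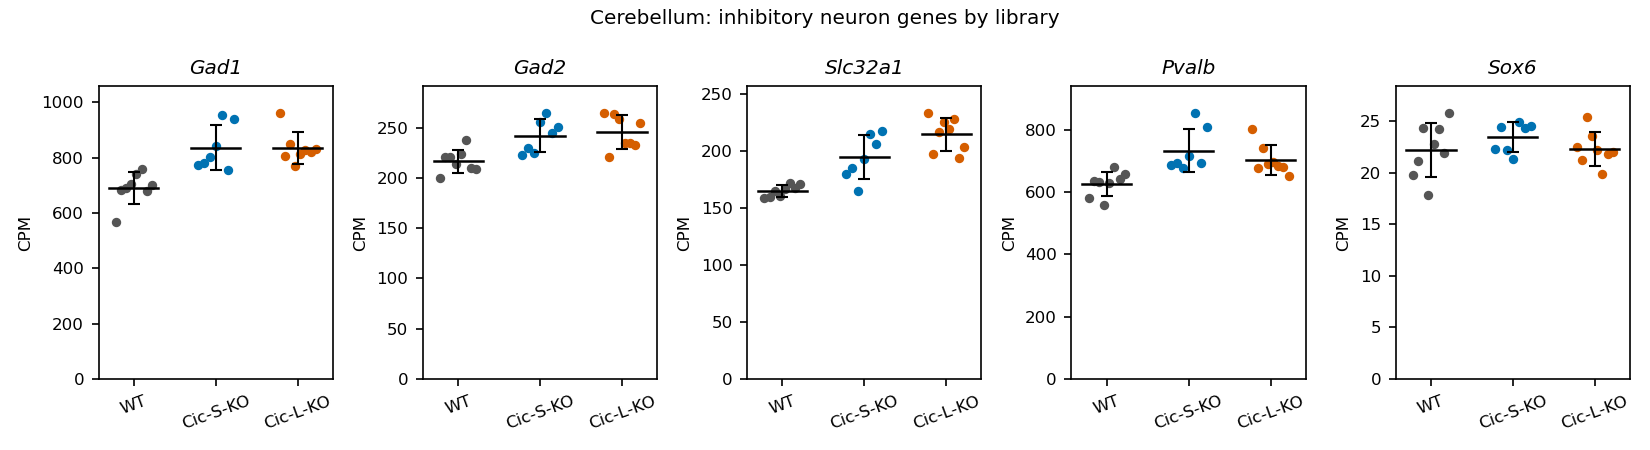
Level of the 5 genes tested in each cerebellum library (CPM, axes from 0), for 8 WT, 7 Cic-S-KO and 8 Cic-L-KO libraries, with lines at the mean and bars at 1 SD. For Gad1 and Slc32a1 every Cic-L-KO library lies above the WT range, and Sox6 overlaps across the 3 genotypes.

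Between the knockouts none of the 5 members tested in cerebellum was called by edgeR, where 12.4% of all genes were (6.06% higher and 6.38% lower in Cic-S-KO). One had an unadjusted p under 0.05 and was called by DESeq2. This was Slc32a1, lower in Cic-S-KO by -0.14 ± 0.05 on the log2 scale, with 4 of 7 libraries below every Cic-L-KO library (edgeR adjusted p = 0.057 and DESeq2 adjusted p = 0.044). In edgeR it was called on leaving out Cic-L-KO replicate 2 or 7 or Cic-S-KO replicate 5, 6 or 7. For Gad1 the difference was 0.00 with an interval from -0.11 to 0.11.

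Markers of the cerebellar cell types moved in the same libraries. Of 5 interneuron markers, Kit and Sorcs3 rose in both knockouts, Kit by 0.37 for Cic-S-KO and 0.42 for Cic-L-KO on the log2 scale and Sorcs3 by 0.30 and 0.49, and the summed level of the 5 ran from 413 to 448 CPM in WT, 466 to 639 in Cic-S-KO and 530 to 633 in Cic-L-KO, without overlap between WT and either knockout. Of 10 Purkinje cell markers, 5 rose in Cic-S-KO (Gng13, Itpr1, Lhx5, Skor2 and Slc1a6). In Cic-L-KO 0 of 10 were called by edgeR, with 2 at an unadjusted p under 0.05 and 1 called by DESeq2. The Purkinje sum was 9839 ± 1032 CPM in WT (SD, n = 8), 11552 ± 999 in Cic-S-KO (n = 7) and 10251 ± 908 in Cic-L-KO (n = 8), and the lowest sum, 7657, was in WT replicate 1, the library with the lowest Gad1. The sum of 5 granule neuron markers was 4684 ± 377, 3796 ± 557 and 3977 ± 517 CPM. Of these 5, 3 were called lower in Cic-S-KO (Cbln3, Gabra6 and Neurod1) and 1 in Cic-L-KO (Gabra6), and 0 had a positive fold change in either. Gabra6, a GABA receptor subunit of granule neurons, fell by 0.42 in Cic-S-KO and by 0.38 in Cic-L-KO. The part of these markers in the rise of the GABA genes was not tested.

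Whether a knockout acted differently in the 2 regions was tested over all 46 brain libraries. Of the 5 members that passed the filter in cerebellum, the Cic-S-KO effect differed for 2, both with the lower effect in cortex. Of all 18032 genes, 4.50% differed (2.01% higher and 2.50% lower). Pvalb was the larger of the 2, at -0.51 ± 0.10 (cortex effect minus cerebellum effect on the log2 scale, edgeR adjusted p = 0.0034), as the gene rose in Cic-S-KO cerebellum while its cortex value was below 0. That cortex value was not called by edgeR, and the region differences were not fitted with the striatal covariate. Gad1 differed by -0.29 ± 0.08 (0.032). For the Cic-L-KO effect, 0 of these 5 members were called by edgeR or by DESeq2, with 1 at an unadjusted p under 0.05 (Gad1, -0.17 ± 0.08). Of all genes, 11.5% were called with the higher effect in cortex and 11.5% with the lower. For Slc32a1 in Cic-L-KO the difference was 0.04, with an interval from -0.21 to 0.29. The values for Lhx6 and the Dlx genes rest on cerebellum counts near 0 and are not read here, that of Dlx1 in Cic-S-KO, which DESeq2 called, included.

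**Figure D5:**
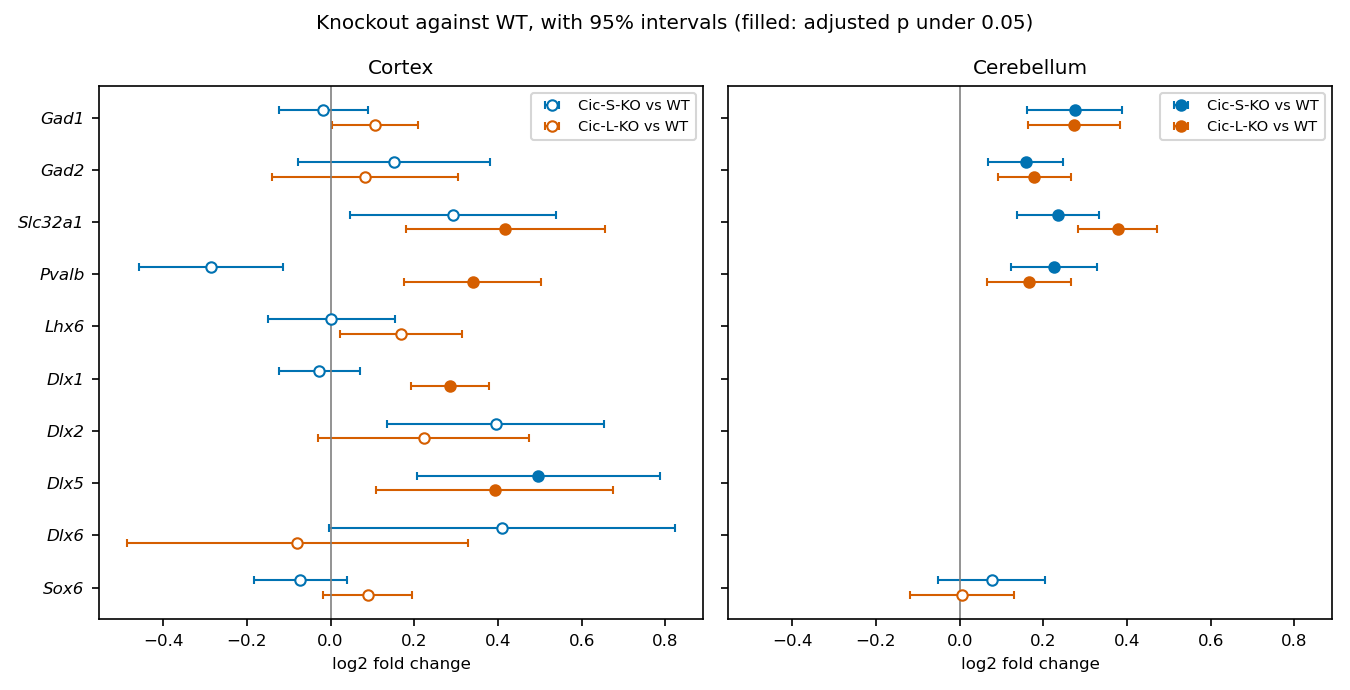
log2 fold change of each knockout against WT in cortex (left) and cerebellum (right), with 95% intervals, filled points being called at an adjusted p under 0.05. The intervals use a normal multiple of the SE and are slightly narrower than the test would give. Pvalb lies on opposite sides of 0 for the 2 knockouts in cortex and to the right of 0 for both in cerebellum. Genes without a point in cerebellum did not pass the filter on low counts.

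Other genes of GABA handling changed as well, and their counts and those of the lists that follow stand against the shares of all genes tested, which in cortex were 43.2% called for Cic-L-KO and 6.53% for Cic-S-KO, and in cerebellum 21.5% and 8.23%. Of 6 tested genes of GABA transport and breakdown, 5 rose in Cic-L-KO cerebellum and 3 in Cic-S-KO cerebellum, with median log2 fold changes of 0.23 and 0.20. Abat, the transaminase that breaks down GABA, rose by 0.27 in Cic-L-KO (579 against 481 CPM) and 0.12 in Cic-S-KO cerebellum. Aldh5a1, the next enzyme of that path, rose by 0.15 and 0.22. Slc6a13, the GABA transporter GAT2, rose by 0.70 in Cic-L-KO. In Cic-L-KO cortex 3 of the 6 rose and 1 fell. Slc6a11, the astrocyte transporter GAT3, rose by 0.56 ± 0.05 (SE, 243 against 165 CPM, edgeR adjusted p = 9.9e-10) and Abat by 0.31 ± 0.04, each with all 8 libraries above every WT library, and Aldh5a1 by 0.13. In Cic-S-KO cortex Slc6a11 rose by 0.25 and Slc38a1, a glutamine transporter, fell by 0.11. Glul was not analysed here. Of 5 astrocyte markers, 2 were called higher in Cic-L-KO cortex (Aldh1l1 by 0.24 and Gja1 by 0.17), and their summed level was 1399 ± 125 CPM (SD, n = 8) against 1339 ± 104 in WT (n = 8). The summed level of 3 choroid plexus genes had a median of 386 CPM (12.0 to 1227) among the Cic-L-KO libraries of cortex, 24.2 (18.5 to 566) in WT and 15.8 (7.49 to 591) among those of Cic-S-KO. Between Cic-L-KO and WT 0 of these 3 were called by edgeR, with 2 at an unadjusted p under 0.05 and 1 called by DESeq2. The part of these cell types in the values of the transport genes was not tested.

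The markers of interneuron classes went different ways in Cic-L-KO cortex, where 5 of 14 rose, 6 fell and the median log2 fold change was -0.09. Sst, the peptide of the other large class of Lhx6 interneurons, rose by 0.72 ± 0.04 (SE, 304 against 184 CPM, edgeR adjusted p = 6.3e-14) and Npy by 0.81 ± 0.05 (106 against 60.6 CPM, 6.1e-13), each with all 8 libraries above every WT library. Calb1, which excitatory neurons also make, fell by 0.67. The others that rose were Cort, Nos1 and Reln. The others that fell were Cck, Htr3a, Lamp5, Ndnf and Vip, which are used as markers of interneurons born outside the medial ganglionic eminence, some of them also made by excitatory neurons. In Cic-S-KO cortex 4 of 14 fell, among them Npy by 0.25, Vip by 0.32 and Lamp5 by 0.35, and 0 rose. In cerebellum, where 11 of the 14 were tested, Npy fell by 1.54 in Cic-L-KO (2.90 against 8.41 CPM) and rose by 0.46 in Cic-S-KO (11.5 CPM), and Calb2 fell by 0.39 in Cic-L-KO and by 0.33 in Cic-S-KO. Nos1 rose by 0.29 in Cic-S-KO cerebellum.

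Genes linked to fast-spiking basket cells, the interneurons that make parvalbumin, rose in 7 of 10 cases in Cic-L-KO cortex and fell in 1, with a median log2 fold change of 0.28. Acan, the core protein of the nets around these cells, rose by 1.59 ± 0.08 (SE, 17.0 against 5.67 CPM, edgeR adjusted p = 9.6e-16), Pthlh by 1.53 ± 0.11 (8.40 against 2.90 CPM) and the neurofilament gene Nefh by 0.53 ± 0.05, each with all 8 libraries above every WT library. Acan, Nefh and the potassium channel genes of this list are also made by other neurons. In Cic-S-KO cortex 2 of 10 fell, Nefh by 0.20 and Kcnc2 by 0.14. In Cic-L-KO cerebellum Ppargc1a rose by 0.23 and Cox6a2 by 0.78, and Kcnc1 fell by 0.26, as it did by 0.23 in Cic-S-KO cerebellum. Syt2 and Erbb4 were not analysed here.

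Of 11 other interneuron transcription factors, 2 were higher and 2 lower in Cic-L-KO cortex, with a median log2 fold change of 0.07, so the share called was near that of all genes. Npas1 was among those higher, while Zeb2 fell by 0.21 and Nr2f2 by 0.73. In Cic-S-KO cortex 1 of 11 was called, Maf, which fell by 0.23. In cerebellum 7 were tested. In Cic-S-KO Zeb2 rose by 0.23 and Maf fell by 0.22. The Cic-L-KO comparison called 0 of 7 by edgeR or DESeq2, with 0 at an unadjusted p under 0.05. The excitatory neuron markers moved too in Cic-L-KO cortex, where 5 of 8 fell and 1 rose. Their summed level was 1759 ± 88.5 CPM in Cic-L-KO (SD, n = 8), 2202 ± 78.4 in WT (n = 8) and 2160 ± 115 in Cic-S-KO (n = 7), and their part in the rise of Slc32a1, Pvalb and Dlx1 as shares of all counts was not tested. Endothelial cell markers were higher as well, 2 of 3 in Cic-L-KO cortex and 3 of 3 in Cic-L-KO cerebellum, with summed levels of 139 ± 9.20 CPM in Cic-L-KO cortex (SD, n = 8) and 111 ± 13.8 in WT (n = 8), and 123 ± 8.51 and 83.3 ± 7.52 in cerebellum. In Cic-S-KO cortex 2 of 4 oligodendrocyte markers rose, Mag by 0.51 and Mog by 0.38. The part of these cell types in the members' values was not tested.

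Several members overlap genes on the opposite strand, and the sources used here do not say whether reads were counted by strand, so reads of such pairs cannot be told apart. Dlx1as, opposite Dlx1, was read at 4.52 ± 0.60 CPM in Cic-L-KO cortex (SD, n = 8) and 3.23 ± 0.64 in WT (n = 8), a rise of 0.49 ± 0.13 on the log2 scale (edgeR adjusted p = 0.0026), in the same libraries in which Dlx1 rose. Dlx6os1, opposite Dlx6, was read at 20.6 ± 3.09 CPM in WT cortex (SD, n = 8), and was not called in either knockout. Gad1os, Sox6os and the genes Gm14205 and Gm45025, which overlap Gad1, Sox6, Slc32a1 and Sox6, had group means of at most 0.345 CPM in brain. Gad1-ps, a pseudogene of Gad1, had group means of at most 0.402 CPM in brain, against at least 411 for Gad1.

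Within genotypes, the members of the list did not vary as 1 block across cortex libraries. After subtracting genotype means, Gad1 and Gad2 had a Pearson r of 0.90 over the 23 libraries, and Pvalb had r = -0.66 with Gad2 and -0.69 with Dlx5. In cerebellum all 10 pairs among the 5 tested genes had a positive r, from 0.30 for Gad1 with Sox6 to 0.76 for Gad1 with Pvalb. The genes whose centred log2 CPM was most like the mean of the members, among 11439 in each region, were Cacna2d2 (r = 0.93), Klhl13 (0.91), Srgap1 (0.91), Sp9 (0.89) and Pbx3 (0.88) in cortex. In cerebellum they were 1500009C09Rik (r = 0.84), Ppp1r16b (0.84), Sept4 (0.83), Arhgap32 (0.82) and Tspan13 (0.81). These values describe 23 libraries of 1 tissue that differ in depth, and no test was made of them.

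In lung, which holds few neurons, Lhx6 and Sox6 had the highest levels of the 10 members. Lhx6 was at 12.0 ± 4.50 CPM in the WT libraries, 9.19 ± 3.0 in those of Cic-S-KO and 11.7 ± 2.66 in those of Cic-L-KO (SD, n = 8 each), and Sox6 at 8.53 ± 1.29, 8.27 ± 0.74 and 9.05 ± 1.80, with overlapping groups. Gad1 had medians of 0.416 CPM in WT lung, 0.445 for Cic-S-KO and 0.619 for Cic-L-KO, and the other 7 members had group medians of at most 0.198 CPM.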

How the data were processed

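Members and lists were chosen with earlier results of these data known. Total RNA was isolated from flash-frozen tissue with a miRNeasy kit and libraries were made with polyA selection, per the labels' protocols. The authors deposited raw read counts for 50789 genes in 70 libraries. STAR 2.7 and GRCm38.p6 appear in the submitters' processing notes, while the counting program, annotation and strand setting are not given in the sources used here. Symbols and lengths came from GENCODE M21 (50639 identifiers matched, ignoring versions). Some genes, with those of chromosome 1 among them, were not analysed here, so totals are not full depth.

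Each brain region was fitted with edgeR 4.0.16 (R 4.3.3): filterByExpr on genotype, TMM, a robust quasi-likelihood fit of 3 genotypes, and Benjamini-Hochberg adjustment over all genes. Region differences used 1 fit of 46 libraries in 6 groups. The SE of a log2 value was worked back from the F statistic of its test. Its interval is a normal multiple of that SE, slightly narrower than the test would give. Named are all 10 members, the 3 smallest p per list and contrast, and the 5 genes most like the members by Pearson r across libraries (mean log2 CPM of at least 2); other listed genes were named after their values were seen. CPM are TMM-scaled, with a prior count of 2 for log2 values. Alternatives were DESeq2 1.42.0, RLE size factors, no filter, a mean of at least 50 counts, the compared genotypes alone, the replicate or the library number as a block, 20 GC bins, each library left out, and a striatal covariate. The fits were tested on simulated data. No 2 libraries of a group were identical or within sampling noise of each other. Lung was not tested. Some listed genes are counted with their list but not reported here by name.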

Additional observations from a re-analysis of the deposited data

Results flagged for a closer look

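Over all members together, 54 groups of values were examined and 3 single libraries lay far from their group, where chance alone would give 2.7. All 3 were values of Gad1. In cerebellum, WT replicate 1 was at 567 CPM (the other WT libraries ran from 680 to 759), and Cic-L-KO replicate 1 was at 963 CPM (the others ran from 770 to 848). In lung, Cic-S-KO replicate 5 was at 2.49 CPM (the others ran from 0.166 to 0.611).

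By the interaction test of edgeR, the 2 brain regions responded unequally to the Cic-S-KO genotype for Gad1 (-0.29 on the log2 scale, cortex minus cerebellum) and for Pvalb (-0.51). Neither difference was fitted with the striatal covariate.

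Lung entered no test. Cases in which a knockout lung library held at least 10 counts of a member and a level above every WT lung library are given here, and smaller counts are left out. Gad1 was at 1.04, 1.08 and 0.929 CPM in Cic-L-KO replicates 1, 2 and 7, against at most 0.843 in WT. Cic-S-KO replicate 5 held Gad2 at 0.692 CPM, with 0 counts in the other 23 lung libraries, Slc32a1 at 0.803 (at most 0.157 in WT) and Dlx1 at 1.19 (at most 0.0423 in WT). Sox6 was at 12.9 CPM in Cic-L-KO replicate 8, against at most 10.8 in WT. Cic-S-KO replicate 5 also held other neuron genes, which were chosen after its values were seen: Tubb3 at 21.2 CPM (at most 0.952 in the other Cic-S-KO lung libraries), Slc17a7 at 8.25 (0.580), Snap25 at 3.07 (0.279) and Sst at 1.22 (0.0414). The source of this signal was not tested.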

How the results depend on the processing

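Under the alternatives that keep all libraries, 515 of 540 member values stayed on their side of the threshold. Of the others, 16 were newly called and 9 lost their call, and 0 called values changed sign. The 540 include the region comparisons of Lhx6 and the Dlx genes. Between WT regions the direction of these genes was fixed by the low-count filter, and their region differences in knockout effect are not read. The share that stayed is therefore no measure of how firm the other calls are. Some values called in neither setting did change sign, such as Gad2 in Cic-S-KO cortex against WT with the striatal covariate (0.15 to -0.05). The calls of Slc32a1, Pvalb and Dlx1 in Cic-L-KO cortex, and of Gad1, Slc32a1 and Pvalb in both cerebellum comparisons with WT, held under each of these alternatives and on leaving out each of the 23 libraries in turn. Beyond what is given above, leaving out 1 library newly called Pvalb (without Cic-L-KO replicate 6, Cic-S-KO replicate 1 or 4, or WT replicate 2 or 7), Dlx2 (Cic-S-KO 4 or 5, WT 2) and Slc32a1 (Cic-S-KO 4) in Cic-S-KO cortex against WT, Lhx6 (Cic-L-KO 4, Cic-S-KO 1, WT 4 or 5) and Gad1 (Cic-L-KO 5, Cic-S-KO 4) in Cic-L-KO cortex against WT, and Dlx6 (Cic-L-KO 1 or 6, Cic-S-KO 4 or 5), Gad1 (Cic-L-KO 5, Cic-S-KO 2 or 3) and Lhx6 (Cic-S-KO 2 or 6) between the knockouts in cortex.

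In Cic-S-KO cortex against WT, the 1 member called became 3 with DESeq2, 2 at a mean of at least 50 counts, and 0 with the compared genotypes alone, the GC adjustment or the striatal covariate, and ran from 0 to 4 with 1 library left out. The 1108 genes called of all became 732 without a filter, 654 with the compared genotypes alone, 449 with the GC adjustment and 368 with the striatal covariate, and ran from 457 to 1482 with 1 library left out (457 without Cic-S-KO replicate 6, 682 without Cic-S-KO replicate 7, and 674, 633, 677 and 690 without WT replicates 1, 3, 6 and 8). Between the knockouts in cortex, the 3 members called became 5 with the striatal covariate and ran from 2 to 5 with 1 library left out. Between the knockouts in cerebellum, the count of 0 became 1 (Slc32a1) with DESeq2, without a filter and at a mean of at least 50 counts, and ran from 0 to 1 with 1 library left out. In Cic-S-KO cerebellum against WT, the 1370 genes called ran from 886 to 1840 with 1 library left out (886 without Cic-S-KO replicate 6 and 903 without replicate 7). For the Cic-S-KO difference between regions, without a filter 446 genes of all were called in place of 812, and 1 member in place of 2 (Gad1 adjusted p = 0.089). The cause of these shifts was not tested.

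With the replicate number of the titles as a block, 0 members were called in Cic-S-KO cortex and 3 in Cic-S-KO cerebellum (Gad2 was lost, adjusted p = 0.086), and the counts over all genes were 627 and 591; no other member call changed. The library numbers in the descriptions differ from these for Cic-S-KO brain replicates 2 to 7. With the library number as a block, added after the data were seen, Gad2 was also lost in Cic-S-KO cerebellum (adjusted p = 0.079), Gad1 was newly called between the knockouts in cortex (-0.13, adjusted p = 0.043), and the counts over all genes were 1121 for Cic-S-KO cortex and 1001 for Cic-S-KO cerebellum. The correlation of deviations between same-numbered libraries was over 0.1 in 8 of 22 pairs in cortex and 9 of 22 in cerebellum. Across regions it was over 0.1 in 10 of 23, and by library number in 7 of 22 (cortex) and 9 of 22 (cerebellum). Pairs of unlike number were not compared, so these values do not show whether same-numbered libraries came from the same mice. Dlx2, Dlx5 and Dlx6, at 2.65 to 8.47 CPM in cortex, are the members whose depth limits them most there, and Lhx6 and the Dlx genes were not testable by genotype at their cerebellum depth.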
